A study of Mus musculus with 6 samples.

Results

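The genes described here encode the microtubule system of the brain: tubulins, kinesins, dyneins, dynactin, stathmins and microtubule-associated proteins. They were taken by gene symbol from the annotation of the array platform and numbered 59 of the 6214 genes on the array with a single symbol. Of these, 56 had enough values to be tested, among 6146 genes tested in all. The samples were brains of male mice aged 9 weeks, treated for 10 min with naloxone, an antagonist of opioid receptors, or with saline. Each of the 6 two-colour arrays compared the naloxone brain RNA (Cy5 dye) with saline brain RNA of the same strain (Cy3 dye). NY1DD mice, a transgenic line used as a model of sickle cell disease, supplied 3 arrays, and wild-type C57BL/6J mice supplied 3. The labels do not name the promoter or the host background of the NY1DD transgene, nor whether arrays of a strain came from separate animals or pools, so the errors below measure the spread between arrays, which may be technical. A number of unstated meaning stands in each sample title. It is the same for C57BL/6J replicates 1 and 2, differs among the remaining 4 arrays, and never recurs across strains. If these numbers mark batches, batch and strain cannot be told apart in the difference between strains.

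Microtubules are hollow polymers of alpha and beta tubulin pairs, started from gamma tubulin complexes. In neurons they are the tracks for transport along axons and dendrites. Kinesins mostly carry cargo outward to the synapse, and cytoplasmic dynein with its partner dynactin carries cargo back to the cell body. Stathmins bind free tubulin and favour disassembly, while proteins such as tau, MAP2 and MAP6 bind the polymer and stabilise it.

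Every value below is a log2 ratio of the channels of an array, after the median of that array was set to 0. The ratio is likely naloxone over saline, from the dyes named in the design text, but the deposited table does not state its numerator; in the reverse case all signs turn. A log2 ratio of 1 is a doubling, and 0 is no difference. The array gives ratios only, so the level of a gene in the brain, and the check of the tissue by marker levels, could not be read from it. The dyes were never exchanged. Within a strain, naloxone and any dye effect common to the arrays therefore cannot be told apart; subtracting one strain from the other removes such an effect. Strain means have n = 3 arrays. Their standard errors (SE) come from limma, which uses 1 spread for both strains, so a member has the same SE in each strain. Adjusted p-values are Benjamini-Hochberg values over all 9685 features tested. Usable probes per array ranged from 11155 to 11413. The SD of the log2 ratios over all probes ranged from 0.43 on C57BL/6J replicate 1 to 0.59 on NY1DD replicate 2. On NY1DD replicate 2 the position of a probe in its source plate accounted for 27.5% of the variance, against 3.20% to 11.4% on the other arrays.

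None of the 56 microtubule genes passed the threshold of 0.05 (limma, adjusted p) in any of the 4 comparisons, and neither did any of the 9685 features (0% in each). At an unadjusted p under 0.05, 6 members stood out in NY1DD (10.7%, against 8.35% of all features), 3 in C57BL/6J (5.36%, against 6.93%), 3 in the difference between strains (5.36%, against 4.5%) and 8 in the average of both strains (14.3%, against 10.8%). These shares are close to those of the whole array. Split by sign, the counts were 3 positive and 3 negative in NY1DD (array shares 3.46% and 4.89%), 2 and 1 in C57BL/6J (1.76% and 5.17%), 2 and 1 in the difference (2.75% and 1.76%), and 4 and 4 in the average (3.4% and 7.37%). The members' median log2 ratio was 0.03 in NY1DD, where 29 were above 0 (51.8%, against 47.5% of all features), and 0.03 in C57BL/6J, where 33 were above (58.9%, against 49.9%). In the average of both strains it was 0.03, with 30 above 0 (53.6%, against 48.2%). The medians of the 6090 other genes were -0.0075 in NY1DD and 0.0040 in C57BL/6J. The members' strain means ran from -0.59 to 0.72 in NY1DD and from -0.81 to 0.80 in C57BL/6J.

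**Figure D1:**
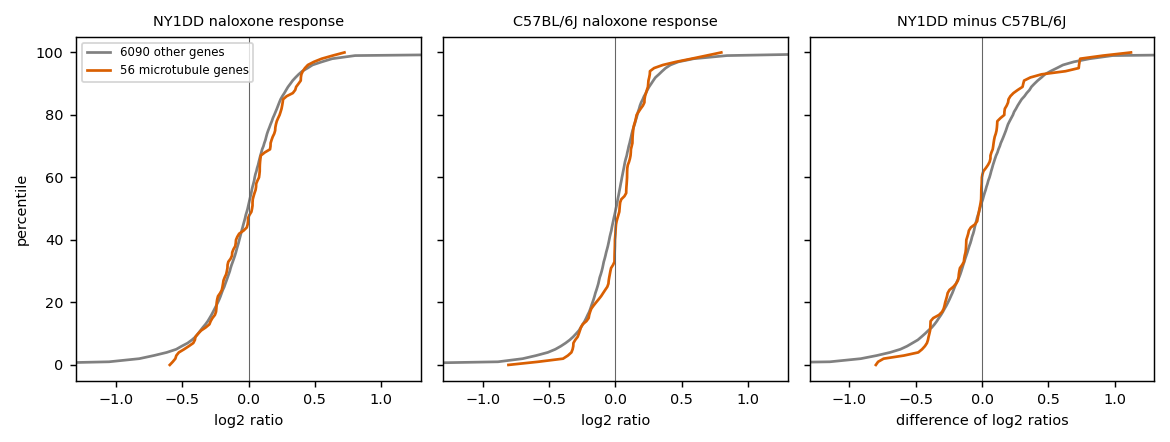
Cumulative distributions (y axis, percentile) of the mean log2 ratio in NY1DD, the mean log2 ratio in C57BL/6J and the difference between strains (x axes) for the 56 microtubule genes and the 6090 other genes. The curves cross and run close together in all 3 panels; the medians of the members are 0.03, 0.03 and -0.02.

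The members differed more between arrays of 1 strain than their means differed from 0. The median absolute mean of the members was 0.20 in NY1DD and 0.13 in C57BL/6J, against 0.17 and 0.13 for the other genes. Their median SD between arrays was 0.29 in NY1DD and 0.17 in C57BL/6J, against 0.31 and 0.23 for the other genes. All 3 arrays had the same sign for 20 members in NY1DD (35.7%, against 28.5% of features with values on all arrays) and for 14 in C57BL/6J (25%, against 31.3%). Of the 20, 9 were positive (array share 13.6%) and 11 negative (14.9%), and of the 14, 7 were positive (14.2%) and 7 negative (17.1%). The number of members above 0 was 34, 22 and 23 of 56 for the NY1DD replicates, in order, and 29, 30 and 28 for those of C57BL/6J. NY1DD replicate 1 had the highest median of the members, 0.09, and NY1DD replicate 2 the lowest, -0.05. Members past 1.5-fold in either direction made up 28.6% on NY1DD replicate 1 and 3.57% on NY1DD replicate 3, against 21.1% and 11.2% of the other genes.

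**Figure D2:**
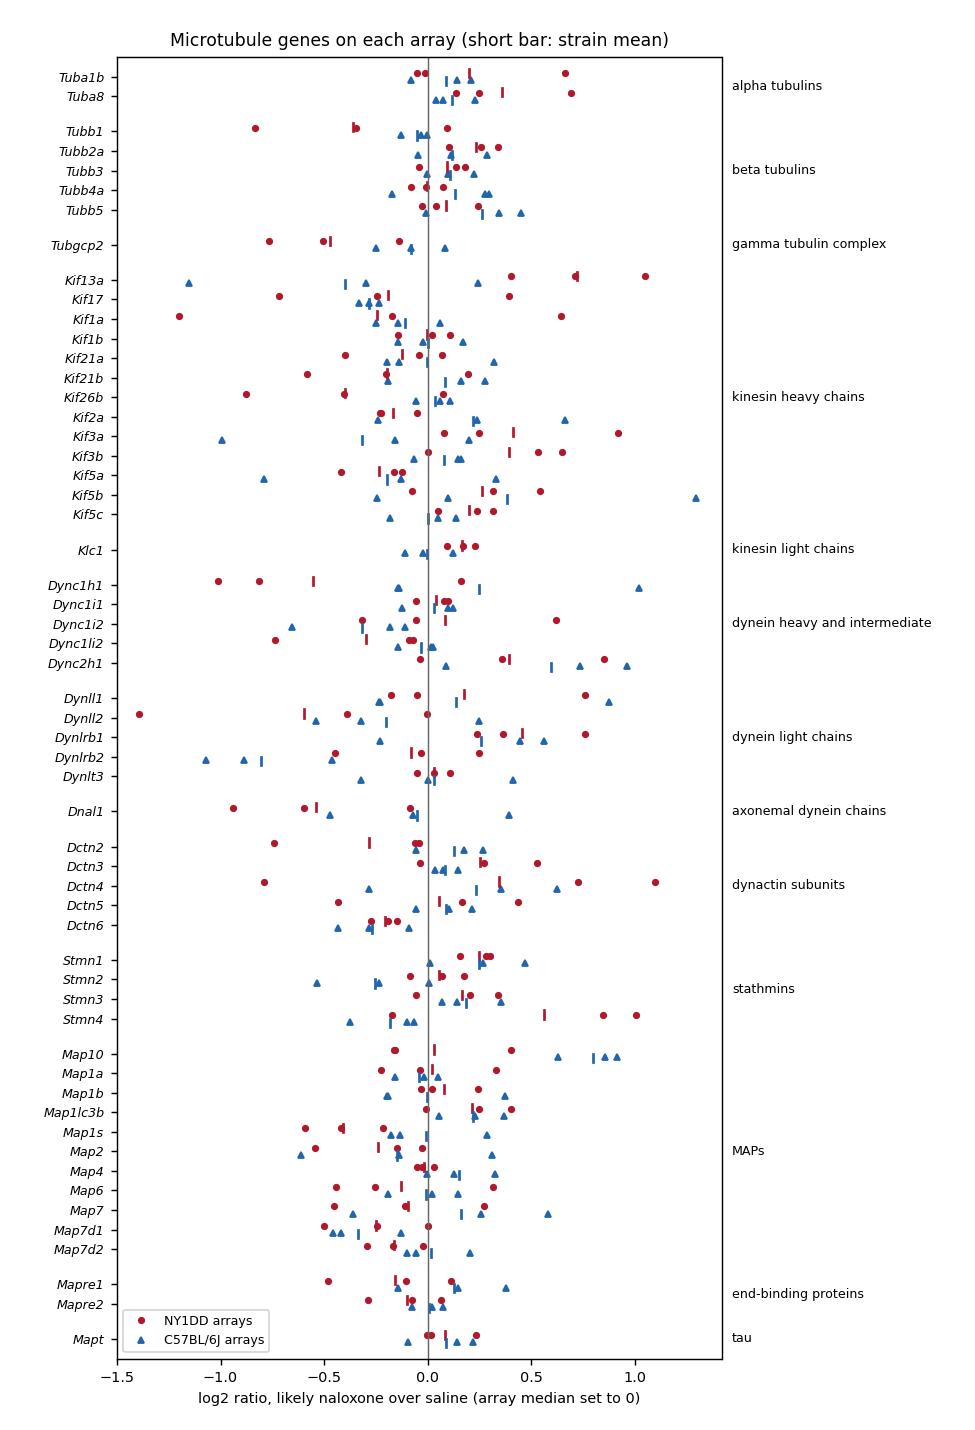
Log2 ratio (x axis, likely naloxone over saline) of each of the 56 microtubule genes (y axis, grouped by role) on the 3 NY1DD arrays (circles) and the 3 C57BL/6J arrays (triangles); short bars are strain means. For 52 of the genes the arrays of the strains overlap. Kif13a and Dynlrb2 have all NY1DD arrays above the C57BL/6J arrays. Map10 and Map1s have all NY1DD arrays below them, Map1s only before subtraction of plate well medians.

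None of the 7 tubulins measured had an unadjusted p under 0.05 in any comparison. Both alpha tubulins measured were above 0 in both strains. Tuba8, a divergent alpha tubulin, had log2 ratios of 0.69, 0.14 and 0.25 in NY1DD and 0.08, 0.23 and 0.04 in C57BL/6J. It was thus positive on all 6 arrays before subtraction of plate well medians, with NY1DD replicate 1 the highest. Its means were 0.36 (SE 0.15, limma adjusted p = 0.588) and 0.12 (SE 0.15, adjusted p = 0.980). Tuba1b, a widely expressed alpha tubulin, had 0.20 in NY1DD, which came mostly from replicate 1 at 0.66, and 0.09 in C57BL/6J (SE 0.18 each). Of the 5 beta tubulins, 3 were above 0 in NY1DD and 4 in C57BL/6J. Tubb3, the neuronal beta tubulin, had 0.18, -0.04 and 0.14 in NY1DD and 0.23, 0.10 and -0.0021 in C57BL/6J, with means of 0.09 and 0.11 (SE 0.13 each). Its arrays overlapped between strains and crossed 0 in each. Tubb2a, abundant in neurons, was positive on all 3 NY1DD arrays (0.26, 0.10 and 0.34) with a mean of 0.23 (SE 0.14). These values average 2 probes: 1 had 1.00, 0.16 and 0.24, and the other -0.48, 0.04 and 0.44. Tubb5, a broadly expressed form, had its higher mean in C57BL/6J with 0.26 (SE 0.15). Tubb4a, a brain form enriched in myelinating cells, had -0.0044 and 0.13 (SE 0.15 each). Tubb1, the beta tubulin of platelets, was the lowest, with 0.10, -0.83 and -0.35 in NY1DD (mean -0.36, SE 0.19) and a mean of -0.05 in C57BL/6J. Tubulin genes are close in sequence, and whether cDNA probes of 1 tubulin also bound transcripts of another was not tested.

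Tubgcp2, a subunit of the gamma tubulin complex that starts microtubules, was negative on the 3 NY1DD arrays, with -0.50, -0.77 and -0.14. Its NY1DD mean was -0.47 (SE 0.16, unadjusted p = 0.0229, limma adjusted p = 0.573), the smallest p of the members in that strain. In C57BL/6J it had 0.08, -0.25 and -0.08 (mean -0.08), so the arrays of the strains overlapped. The difference between strains was -0.39 (SE 0.23, adjusted p = 0.969).

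Among the 13 kinesin heavy chains measured, 5 were above 0 in NY1DD and 7 in C57BL/6J, with medians of -0.12 and 0.00062. Kif13a, a kinesin-3 motor of vesicle transport, had the highest NY1DD mean of all members. NY1DD replicates 1 to 3 gave log2 ratios of 0.71, 1.05 and 0.40, whereas those of C57BL/6J gave -0.30, 0.25 and -1.15. All NY1DD arrays lay above all C57BL/6J arrays, and C57BL/6J replicate 3 was far below the other two. The means were 0.72 (SE 0.27, a 1.65-fold ratio, limma adjusted p = 0.579) and -0.40 (SE 0.27, adjusted p = 0.909), and the difference was 1.12 (SE 0.38, unadjusted p = 0.0199, adjusted p = 0.969). Without C57BL/6J replicate 3 the difference was 0.75.

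The kinesin-2 family moves cargo in dendrites and along cilia. Kif3a, a subunit of its heterotrimeric motor, had 0.92, 0.08 and 0.25 in NY1DD and -0.99, -0.16 and 0.20 in C57BL/6J. The C57BL/6J value of replicate 3 lay between the NY1DD values, so the strains overlapped, and the difference was 0.73 (SE 0.37, limma adjusted p = 0.969). Its partner Kif3b had 0.65 and 0.54 on NY1DD replicates 1 and 2 and 0.0006 on replicate 3, with a mean of 0.39 (SE 0.17, unadjusted p = 0.0475, adjusted p = 0.588), and 0.08 in C57BL/6J. Without NY1DD replicate 3 the NY1DD mean of Kif3b was 0.59. Kifap3, the accessory subunit that binds Kif3a and Kif3b, lies outside the symbol rule and was added after its values were seen. It had 0.21, 0.11 and 0.92 in NY1DD (mean 0.42, SE 0.19, limma adjusted p = 0.588) and -0.22, -0.35 and 0.02 in C57BL/6J (mean -0.18). The difference was 0.60 (SE 0.27, adjusted p = 0.969), the highest of the 41 other microtubule genes measured. Kif17, a separate kinesin-2 motor that carries glutamate receptors in dendrites, went from -0.72 to 0.39 between NY1DD arrays (SD 0.56). Its C57BL/6J arrays were tight at -0.28, -0.24 and -0.33 (SD 0.05, mean -0.28). The limma SE of 0.21 and adjusted p of 0.929 for that mean use 1 spread for both strains. They therefore do not measure the spread of the C57BL/6J arrays alone.

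The conventional kinesin-1 motor of axonal transport showed no common direction. Its heavy chains Kif5a, Kif5b and Kif5c had NY1DD means of -0.23 (SE 0.22), 0.26 (SE 0.29) and 0.20 (SE 0.14), while in C57BL/6J they had -0.20, 0.38 and 0.00062. The light chain Klc1 was positive on all 3 NY1DD arrays, with 0.23, 0.17 and 0.10 (mean 0.17, SE 0.13), and near 0 in C57BL/6J. Each Klc1 value averages 4 probes, whose signs differed between arrays. The Kif5b mean in C57BL/6J came mainly from 1 of its 3 probes, at 3.79 on replicate 2, where the other probes had -0.09 and 0.19. Without C57BL/6J replicate 2 the C57BL/6J mean of Kif5b was -0.07. The synaptic vesicle motor Kif1a was alike: 1 of its 4 probes had -3.67 on NY1DD replicate 2, and the gene's values there ran 0.64, -1.20 and -0.17. Kif1b, its relative, had means of -0.0044 and 0.0026 (SE 0.14 each). These hide opposite readings of its 2 probes, with means of -0.14 and 0.13 in NY1DD and -0.16 and 0.16 in C57BL/6J. Among kinesins that act on microtubule ends, Kif2a, which disassembles them, had -0.22, -0.23 and -0.05 in NY1DD and 0.24, -0.24 and 0.66 in C57BL/6J, and Kif21a and Kif21b, which curb growth, had NY1DD means of -0.12 and -0.20 (SE 0.17 and 0.18). Kif26b had the lowest kinesin mean in NY1DD, -0.40 (SE 0.19, adjusted p = 0.593), with -0.88 on replicate 2. It was -0.22 after subtraction of the median of each plate well, -0.16 without NY1DD replicate 2 and -0.64 without NY1DD replicate 3.

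The motor chain of cytoplasmic dynein, Dync1h1, had -0.82, -1.01 and 0.16 in NY1DD and -0.14, 1.02 and -0.14 in C57BL/6J. In each strain 1 array stood apart from the other two, and the means of -0.55 and 0.25 (SE 0.31 each) overlapped in their arrays (difference -0.80, SE 0.43, limma adjusted p = 0.969). The cargo-binding intermediate chains Dync1i1 and Dync1i2 averaged 0.04 and 0.08 in NY1DD, and 0.03 and -0.32 in C57BL/6J. Dync1li2, a light intermediate chain, was negative on all NY1DD arrays (-0.74, -0.09 and -0.07), mostly through replicate 1. Dync2h1, the motor chain of the dynein that works inside cilia, had 0.36, 0.85 and -0.03 in NY1DD and 0.09, 0.96 and 0.74 in C57BL/6J. It was above 0 on 5 of 6 arrays, with an average over strains of 0.49 (SE 0.16, unadjusted p = 0.0180, adjusted p = 0.335), the highest average of all members.

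The dynein light chains, small subunits that link the motor to cargo, went in different directions. Dynlrb2, a roadblock-type light chain, had the lowest C57BL/6J mean of all members. Its values were -0.88, -0.46 and -1.07 in C57BL/6J and -0.45, 0.25 and -0.03 in NY1DD. All C57BL/6J arrays lay below all NY1DD arrays, by a narrow margin of the nearest values. The means were -0.81 (SE 0.19, a 0.572-fold ratio, unadjusted p = 0.00340, limma adjusted p = 0.250) and -0.08 (SE 0.19), and the difference was 0.73 (SE 0.26, unadjusted p = 0.0280, adjusted p = 0.969). Its close relative Dynlrb1 had the opposite sign, with 0.76, 0.37 and 0.24 in NY1DD and -0.23, 0.56 and 0.45 in C57BL/6J (average over strains 0.36, SE 0.14, adjusted p = 0.417). The LC8-type chains Dynll1 and Dynll2 had NY1DD means of 0.18 and -0.59 (SE 0.28 each); that of Dynll2 included -1.39 on replicate 1 and was -0.20 without it. Dynlt3 had 0.03 in each strain, from 3 probes with means from -0.24 to 0.17 in NY1DD and from -0.24 to 0.29 in C57BL/6J. Dynlrb2 is known from ciliated cells, and of 14 listed markers of ependyma and motile cilia only Spag16 was measured. Spag16 had -0.82, 0.92 and 0.36 in NY1DD and 0.03, -0.03 and -0.54 in C57BL/6J; the part of ciliated cells in the Dynlrb2 values was not tested, and in brain tissue fewer cells of a type and less RNA per cell cannot be told apart.

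The single axonemal dynein chain measured, Dnal1, which belongs to the outer arms of motile cilia, had -0.94, -0.60 and -0.08 in NY1DD and -0.07, -0.47 and 0.39 in C57BL/6J. Its NY1DD mean was -0.54 (SE 0.22, unadjusted p = 0.0447, limma adjusted p = 0.588), and the arrays of the strains overlapped. Without NY1DD replicate 1 the NY1DD mean of Dnal1 was -0.34.

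Of 5 dynactin subunits, 3 were above 0 in NY1DD and 4 in C57BL/6J. Dctn6, a subunit of the pointed end of dynactin, was negative on all 6 arrays before subtraction of plate well medians. It had -0.27, -0.19 and -0.15 in NY1DD and -0.09, -0.28 and -0.43 in C57BL/6J. The strains overlapped, and the average was -0.24 (SE 0.09, unadjusted p = 0.0399, limma adjusted p = 0.440). Dctn4, another pointed-end subunit, spread from -0.79 to 1.10 over the NY1DD arrays, the largest SD of any member there (1.00). Dctn2, or dynamitin, had -0.28 (SE 0.18) in NY1DD and 0.13 in C57BL/6J, Dctn3 had 0.26 (SE 0.15) and 0.09, and Dctn5 had 0.06 and 0.09.

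All 4 stathmins had NY1DD means above 0, and 2 of 4 in C57BL/6J. Stmn1, the founding member, was positive on every array, with 0.28, 0.16 and 0.30 in NY1DD and 0.27, 0.01 and 0.47 in C57BL/6J. The strain means were both 0.25, and their average was 0.25 (SE 0.10, unadjusted p = 0.0420, limma adjusted p = 0.443). Members with the same sign on all 6 arrays were Stmn1, Tuba8 and Dctn6, each with 1 probe. They are 3 of 56 (5.36%, against 7.12% of features with values on all arrays). Of those features, 2.45% were positive and 4.66% negative throughout. On NY1DD replicate 2 the median of the plate well of Dctn6 was -0.40, below the gene's -0.19. On C57BL/6J replicates 1 and 3 that of Tuba8 was 0.10, above the gene's 0.08 and 0.04. Relative to their wells, Dctn6 and Tuba8 thus changed sign on these arrays. The neuronal Stmn4 had -0.17, 1.01 and 0.85 in NY1DD and -0.37, -0.10 and -0.06 in C57BL/6J. It was high on 2 NY1DD arrays and negative on the other 4 arrays. Its means were 0.56 (SE 0.24, adjusted p = 0.588) and -0.18, with a difference of 0.74 (SE 0.33, adjusted p = 0.969). The NY1DD mean of Stmn4 was 0.93 without NY1DD replicate 1 and 0.34 without NY1DD replicate 2. Stmn3 had 0.16 and 0.19 (SE 0.14 each). Stmn2, which acts in growing axons, had 0.06 and -0.25 (SE 0.15 each).

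The microtubule-associated proteins held the only member past 1.5-fold on every array of a strain. Map10, a microtubule-stabilising protein, had 0.63, 0.86 and 0.91 in C57BL/6J, compared with -0.16, 0.41 and -0.16 in NY1DD. All C57BL/6J arrays lay above all NY1DD arrays. Past 1.5-fold above 0 on all 3 C57BL/6J arrays were 1 of 56 members and 0.0763% of the features with values on all arrays. No member was so in NY1DD (0.218% of features), nor past 1.5-fold below 0 on all arrays of NY1DD (0.338%) or of C57BL/6J (0.894%). The C57BL/6J mean was 0.80 (SE 0.16, a 1.74-fold ratio, unadjusted p = 0.00166, limma adjusted p = 0.196), the NY1DD mean was 0.03 (SE 0.16), and the difference was -0.77 (SE 0.23, unadjusted p = 0.0121, adjusted p = 0.969). The gene rests on 1 probe. After subtraction of the median of each plate well its C57BL/6J mean was 0.95.

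Among the classical structural proteins of neurons, tau, Map1a and Map1b had means near 0. Tau (Mapt) had 0.02, 0.24 and -0.0018 in NY1DD and -0.09, 0.22 and 0.14 in C57BL/6J, with means of 0.08 and 0.09 (SE 0.14 each). Map1a and Map1b, the large axonal and dendritic proteins, averaged 0.02 and 0.08 in NY1DD, and -0.04 and -0.0033 in C57BL/6J. Map2, which marks dendrites, had -0.24 and -0.15 (SE 0.20 each) and was negative on all 3 NY1DD arrays (-0.15, -0.54 and -0.03). These values average 2 probes of opposite sign on NY1DD replicates 2 and 3: 1 had -1.16 and 0.31, the other 0.07 and -0.37. The plate well of the first had a median of -0.85 on NY1DD replicate 2. Map4, the form of non-neuronal cells, had -0.02 and 0.15 (SE 0.13 each). Map6, which makes microtubules stable to cold, had -0.13 and -0.0063 (SE 0.18 each). Map1s, a short relative of Map1a and Map1b, was negative on all NY1DD arrays with -0.59, -0.42 and -0.21, all below the C57BL/6J values of -0.13, -0.17 and 0.29. Its NY1DD mean of -0.41 (SE 0.16, unadjusted p = 0.0333, limma adjusted p = 0.579) became -0.20 after the median of its plate well was subtracted. Neither the common sign nor the gap between strains remained after that subtraction. On NY1DD replicate 3 the well median was -0.39, below the gene's -0.21. On C57BL/6J replicate 2 it was -0.171, just above the gene's -0.175. Map7d1, related to the kinesin-1 recruiter Map7, was negative on all C57BL/6J arrays (-0.42, -0.13 and -0.46; mean -0.33, SE 0.15) and had an average over strains of -0.29 (SE 0.11, adjusted p = 0.406). Map7 and Map7d2 had NY1DD means of -0.10 and -0.16. Map1lc3b, an LC3 protein of autophagosomes, had 0.21 and 0.22 (SE 0.14 each). The end-binding proteins Mapre1 and Mapre2, which ride on growing ends, had -0.16 and -0.10 in NY1DD and 0.13 and 0.0062 in C57BL/6J.

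**Figure D3:**
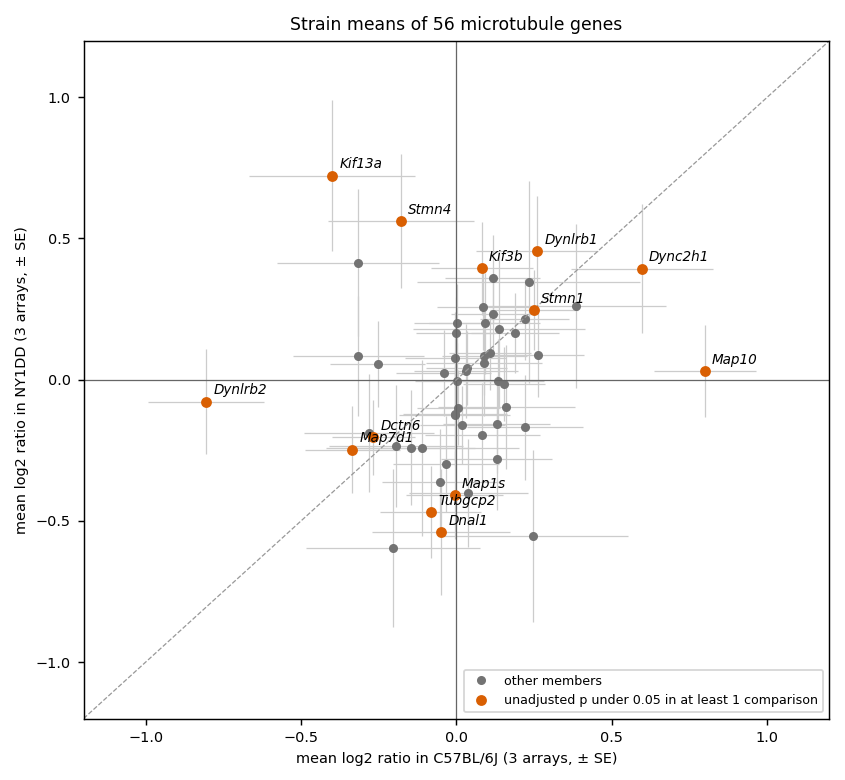
Mean log2 ratio in NY1DD (y axis) against C57BL/6J (x axis) for the 56 microtubule genes, each from 3 arrays with SE bars; the 13 genes with an unadjusted p under 0.05 in at least 1 of the 4 comparisons are named and the dashed line marks equal means. Map10 (0.80) and Dynlrb2 (-0.81) lie far from 0 in C57BL/6J and near 0 in NY1DD, and Kif13a (0.72) and Stmn4 (0.56) are high in NY1DD.

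The difference between strains asks whether naloxone acted differently in sickle cell and wild-type mice. The members' median difference, NY1DD minus C57BL/6J, was -0.02, and that of the other genes was also -0.02; 22 members were higher in NY1DD (39.3%, against 48.3% of all features) and 34 lower. The arrays of the strains did not overlap for 4 members (7.14%, against 9.41% of features with values on all arrays). These were Kif13a and Dynlrb2, with all NY1DD arrays above (array share 5.21%), and Map10 and Map1s, with all NY1DD arrays below (4.2%). For Map1s the arrays overlapped once the medians of its plate well were subtracted. No member had all arrays of 1 strain above 0 and all of the other below, against 2.1% of those features. The median difference was -0.088 without NY1DD replicate 1 and 0.042 without NY1DD replicate 2.

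For 22 members the array carried more than 1 usable probe, which gives a second reading of the same transcript. Probes of the same member had the same sign on an array in 51.3% of 345 pairs, and probes of different members in 49.7% of 25140. The median absolute difference was 0.36 in both cases. For 1289 other genes with several probes, the same sign occurred in 53.0% and the median absolute difference was 0.33. All probe means of a gene had one sign for 10 of the 22 members in NY1DD and for 8 in C57BL/6J. The matching share of the other genes is not given here, so these counts do not show agreement beyond theirs. Stmn3, Tuba1b and Map1lc3b, with 2 probes each, had positive probe means in both strains. Each also had a probe that was negative on at least 1 NY1DD array, such as Tuba1b with -0.15 and -0.19 on replicates 2 and 3. Klc1 had 4 probe means between 0.11 and 0.24 in NY1DD, but each of these probes was negative on at least 1 NY1DD array. Its single probe values there ran from -0.90 to 0.92. Stmn2 had 3 probe means from -0.35 to 0.47 in NY1DD and from -0.74 to 0.16 in C57BL/6J. Map1b had 5 probe means from -0.25 to 0.38 in NY1DD. Kif5c had probe means of -0.40 and 0.40 in C57BL/6J, so its mean of 0.00062 there hides opposite readings. Map10, Dynlrb2, Kif13a and Stmn4 have 1 probe each and no such check.

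**Figure D4:**
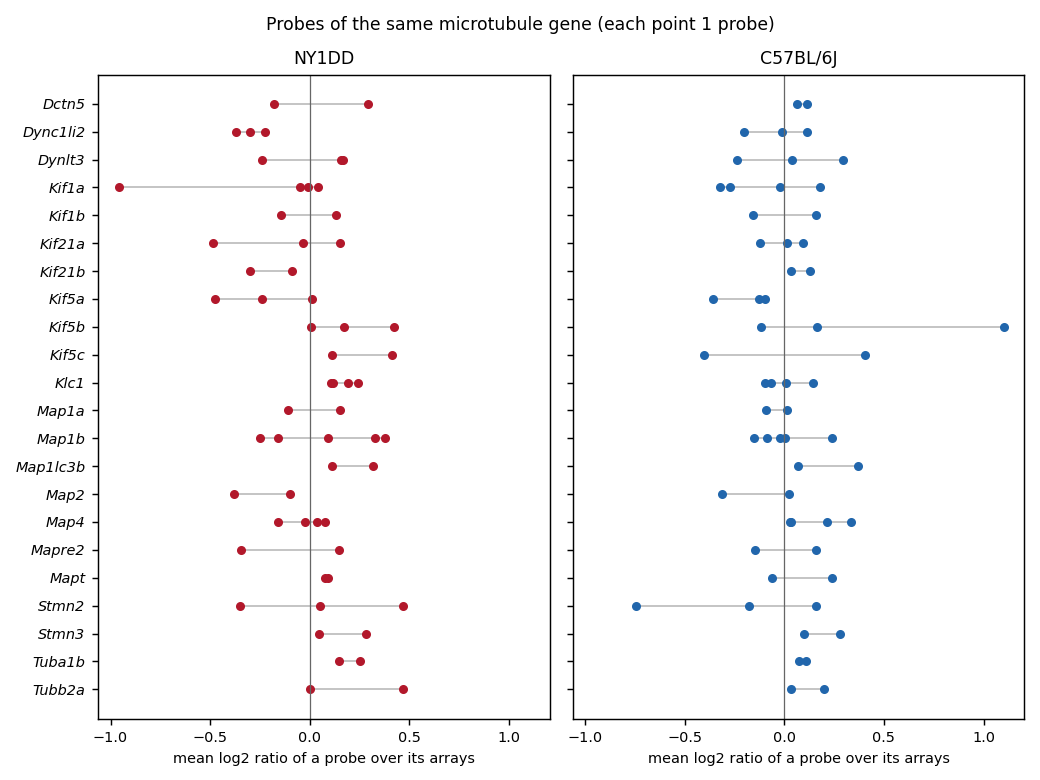
Mean log2 ratio of each probe over its arrays (x axis) for the 22 microtubule genes with more than 1 probe (y axis), in NY1DD (left) and C57BL/6J (right); each point is 1 probe and the line joins the lowest and highest. The probes fall on both sides of 0 for 12 genes in NY1DD and 14 in C57BL/6J.

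The 3 members that were not tested lacked values on NY1DD arrays. Map6d1 and Dynlt1b have 1 probe each, in neighbouring wells of 1 source plate, and both have no value on NY1DD replicates 1 and 2. As deposited (converted to log2, not centred), Map6d1 had 0.19 on NY1DD replicate 3 and 2.41, 0.68 and 1.11 on the C57BL/6J arrays, and Dynlt1b had -2.18 and then 0.59, -0.08 and 2.01. Map1lc3a had no value on NY1DD replicate 1, the lower limit of the table on replicate 2, 0.24 on replicate 3, and -0.02, 0.39 and 0.18 in C57BL/6J.

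Outside these families, 41 of 79 listed microtubule genes (tubulin chaperones, severing and end-tracking proteins, motor adaptors, tubulin-modifying enzymes) were measured. Of these, 21 were above 0 in NY1DD and 19 in C57BL/6J, with medians of 0.01 and -0.02, and 0 passed (limma, adjusted p). At an unadjusted p under 0.05 there were 0 in NY1DD and 2 in C57BL/6J, both negative, against 8.35% of all features in NY1DD, 6.93% in C57BL/6J and 5.17% negative in C57BL/6J. Nin, or ninein, which anchors microtubules at the centrosome, had -0.93, -0.50 and -0.96 in C57BL/6J (mean -0.80, SE 0.18, adjusted p = 0.244) and a mean of -0.38 in NY1DD. Mtus2, which binds growing ends, had -0.53 (SE 0.22, adjusted p = 0.712) and -0.27. For comparison, all 10 listed neuron markers were measured, with a median of 0.16 in NY1DD (7 above 0) and 0.06 in C57BL/6J (6 above 0). On NY1DD replicate 1, where the members' median was highest, the median of the neuron markers was 0.27, against 0.04 and 0.14 on replicates 2 and 3. On that array the 6 oligodendrocyte markers measured had a median of 0.36, the 3 choroid plexus markers 0.73 and the 6 endothelial and mural markers 0.19. Below 0 there were the 6 astrocyte markers (-0.11), the 2 microglia markers (-0.16) and Spag16 (-0.82). The only red cell marker measured had 0.80. The part of these cell types in the members' values was not tested.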

How the data were processed

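The deposited table gives, for 6 arrays, natural log (ln) ratios of both channels. The base was read from the values: as powers of e, 403 of 67941 come out as whole multiples of 0.1 (tolerance 1e-06); as powers of 2 only 1 does, and as powers of 10 only 2. Per the labels' protocols, total RNA was labelled directly; no source used here gives the spot filter, background correction, normalisation or software. Signal over background is unknown, as channel intensities were not analysed here, and the number of arrays limits the precision.

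Ratios were converted to log2. Of 11532 spots, 30 control spots were left out; of 11502 probes, 7906 had 1 gene symbol, 297 several and 3299 none, and 7894 were matched by gene number to RefSeq (GRCm38.p6). Values at the lower limit (a ratio of 0.01, 293 values) were treated as missing, a probe needed values on at least 2 arrays of each strain, arrays were centred on their medians, and probes of a symbol were averaged. In R 4.3.3, limma 3.58.1 estimated each strain's mean from the 6 arrays together (residual degrees of freedom 4; moderated with a prior SD of 0.32 on 3.13 degrees of freedom), with two-sided tests; the fit was tested on simulated data. Shares of features with values on all 6 arrays use 9175 of the 9685 features.

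Genes, lists and roles were chosen with earlier results of these data known. The rule named members with an unadjusted p under 0.05 in any comparison, the highest and lowest of each role in each strain, 30 of 35 listed landmark genes that were measured, and any past 1.5-fold on every array of a strain. These were 47 members; the other 9 (Dctn3, Dctn5, Dync1li2, Dynlt3, Kif17, Kif21a, Kif21b, Map7 and Map7d2) were added after their values were seen, so that every member is given, as were Kifap3, Nin and Mtus2 from the list of other microtubule genes. Lists of markers of astrocytes, oligodendrocytes, microglia, endothelium, choroid plexus and red cells had NY1DD medians of -0.11, 0.16, -0.04, 0.13, 0.13 and -0.07 and C57BL/6J medians of 0.09, 0.06, -0.22, 0.03, 0.29 and -0.15, from 6, 6, 2, 6, 3 and 1 measured genes.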

Additional observations from a re-analysis of the deposited data

How the results depend on the processing

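Under 9 alternatives and the omission of each array in turn, 0 features passed in any of the 4 comparisons (limma, adjusted p under 0.05), and the smallest adjusted p of a member was 0.0845, for Map10 in C57BL/6J with arrays scaled to one spread. All 20 member results with an unadjusted p under 0.05 kept their direction under each of the 15 settings. They were picked by that p from these same arrays, so a kept direction is no separate support for them. The median of the members in C57BL/6J was 0.059 without centring. Leaving out 1 array, the median ranged from -0.02 to 0.08 in NY1DD, from 0.03 to 0.04 in C57BL/6J, from -0.088 to 0.042 in the difference between strains, and from -0.0022 to 0.05 in the average. When values at the lower limit were used, Mapt had -0.60 in C57BL/6J; with values required on all 6 arrays, Kif5c had 0.40 there, since 1 of its probes drops out. The deviations of same-numbered arrays of the strains had correlations of -0.07, 0.06 and 0.02, against -0.09 to 0.08 for arrays with unlike numbers. With 3 arrays per strain, these values cannot show whether the numbers pair arrays. The fit with a replicate block passed 0 features and left the members' medians at 0.03, 0.03, -0.02 and 0.03.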
